A study of Mus musculus with 6 samples.

Results

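The RNA measured here is that of 10 fibroblast growth factor (FGF) genes, Fgf3, Fgf4, Fgf5, Fgf8, Fgf9, Fgf10, Fgf13, Fgf15, Fgf17 and Fgf18, in neuromesodermal progenitors (NMPs) treated with retinoic acid (RA). The genes were chosen by symbol, and they account for 17 of the 30352 RefSeq transcripts and 10 of the 20631 genes listed in each sample. NMPs were derived from mouse embryonic stem cells (ESCs) over 3 days, with bFGF for 2 days and then bFGF and CHIR99021, which activates WNT signaling, for 1 day. Both factors were then removed, and the cells spent 2 h in N2B27 medium with the vehicle DMSO alone or with RA at 25 nM or 1 µM, 2 samples per condition. The 2 RA concentrations are called the low and the high dose below. All 3 conditions share the retinoid-free supplement and the preceding exposure to bFGF. The labels give the ESC strain as 129 (R1) and the methods give C57BL/6, and no result below depends on which is right. The 2 samples of a condition came from separate culture dishes and are called technical replicates in the methods, so that every p-value below measures the spread between dishes of one derivation. The depth, as the sum of estimated counts, ranged over the samples from 31753556 to 42029348.

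FGFs are secreted ligands that bind receptor tyrosine kinases together with heparan sulfate and signal through the Ras-ERK pathway. In the caudal epiblast, where NMPs reside, FGF8 and related ligands keep progenitors undifferentiated, and RA from the neighboring presomitic mesoderm opposes Fgf8 expression as the body axis extends. Fgf8, Fgf17 and Fgf18 form one subfamily, Fgf4 and Fgf5 belong to another, and Fgf3 and Fgf10 to the FGF7 group. Fgf5 is a marker of the early post-implantation epiblast, and Fgf15 encodes the mouse FGF19 ortholog, an endocrine-type FGF. Fgf13 differs from the others in encoding an intracellular FGF homologous factor that is not secreted.

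The cells were checked against markers of the labelled cell type. All 5 NMP markers (T, Sox2, Nkx1-2, Cdx2 and Wnt3a) had a mean level of 1 RPKM or more in each condition, where RPKM is a read number scaled for transcript length and library size. Their summed level was 427 to 437 RPKM in DMSO, 479 to 490 at the low dose and 471 to 485 at the high dose. Within it Nkx1-2 went from a mean of 39.1 to 79.5 and 77.7 RPKM and Sox2 from 5.20 to 15.4 and 16.3. T, the largest part, was at 375, 375 and 370 RPKM, Cdx2 at 5.09, 6.04 and 5.19 and Wnt3a at 7.42, 8.48 and 8.63. None of the 3 committed neural markers (Sox1, Pax6 and Neurog2) reached 1 RPKM. Of 5 ESC markers, Pou5f1, Nanog and Zfp42 were above 1 RPKM and Esrrb and Klf4 below it, and the list summed to between 459 and 495 RPKM over the 6 samples. The summed level of 4 endoderm markers (Sox17, Gata4, Gata6 and Foxa2) was 36.0 to 36.9 RPKM in DMSO, 29.0 to 29.3 at the low dose and 26.9 to 28.3 at the high dose. That of 4 presomitic mesoderm markers (Tbx6, Msgn1, Meox1 and Tcf15) was 37.6 to 37.9, 29.1 to 32.1 and 24.7 to 26.9 RPKM, with Meox1 below 1 RPKM throughout, and within it Msgn1 went from a mean of 27.4 to 19.5 and 14.8 RPKM while Tcf15 went from 1.66 to 4.07 and 4.43 and Meox1 from 0.102 to 0.386 and 0.662. Of the endoderm markers, Sox17 went from a mean of 6.76 to 4.5 and 3.43 RPKM and Foxa2 from 14.4 to 11.1 and 9.78, while Gata4 was at 5.87, 5.24 and 5.82 and Gata6 at 9.40, 8.27 and 8.56. Of 5 fibroblast markers 2 were at 1 RPKM or more, as were 2 of 3 markers of blood and vessel, and those lists summed to at most 5.86 and 7.20 RPKM in any sample. In such bulk samples, fewer cells of a type and less RNA per cell cannot be told apart.

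Fgf8 and Fgf5 have several coding transcripts whose reads the authors divided by expectation-maximization, and the pieces that tell those transcripts apart are shown because the isoform values below rest on them. Fgf8 lies on chromosome 19 (45736798 to 45742884, minus strand, mm10) and has 4 RefSeq transcripts with common outer ends. An exon of 87 bases at chr19:45741911-45741997 is coding in NM_001166361 only. A stretch of 33 bases at chr19:45741647-45741679, which lengthens the exon that follows, is in NM_001166361 and NM_001166362. A stretch of 192 bases at chr19:45742324-45742515 is in NM_010205 only, and NM_001166363 has none of these pieces. Splice forms of Fgf8 that differ in this amino-terminal stretch are known to differ in their affinity for FGF receptors. Fgf5 lies on chromosome 5 (98254184 to 98277033, plus strand), and its exon of 104 bases at chr5:98261943-98262046 is in NM_010203 and not in NM_001277268, whose coding sequence in the GENCODE annotation is 363 bases long against 792 bases for NM_010203. The 4 pieces, written 5′ to 3′ on the strand of the gene from the GENCODE transcripts of the same build, read as follows, with no capitals since no motif is marked.
Fgf8 exon in NM_001166361: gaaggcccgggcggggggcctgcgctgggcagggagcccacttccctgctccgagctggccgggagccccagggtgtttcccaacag
Fgf8 stretch in NM_001166361 and NM_001166362: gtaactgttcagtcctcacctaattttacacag
Fgf8 stretch in NM_010205: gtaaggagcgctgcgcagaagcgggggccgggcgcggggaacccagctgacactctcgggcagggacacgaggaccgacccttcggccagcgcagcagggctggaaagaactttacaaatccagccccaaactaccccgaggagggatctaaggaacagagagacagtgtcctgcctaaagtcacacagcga
Fgf5 exon in NM_010203: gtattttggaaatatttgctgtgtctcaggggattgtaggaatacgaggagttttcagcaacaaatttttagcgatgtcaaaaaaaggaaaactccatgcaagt

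In DMSO, RNA of the 10 genes spanned levels from 0.199 ± 0.0307 RPKM for Fgf9 to 58.3 ± 1.52 RPKM for Fgf8 (mean ± SD, n = 2). Fgf8 was followed in order by Fgf5 (48.8 ± 0.770), Fgf3 (12.4 ± 0.00120), Fgf15 (7.77 ± 0.0180), Fgf4 (4.31 ± 0.153), Fgf17 (2.44 ± 0.224), Fgf13 (1.66 ± 0.0246), Fgf10 (0.866 ± 0.127) and Fgf18 (0.444 ± 0.128), all in RPKM. No neighbors in this order overlapped in their ranges over the 2 samples. With 25 nM RA the order was the same except that Fgf15 (21.9 ± 0.295) lay above Fgf3 (15.2 ± 0.382). With 1 µM RA Fgf10 and Fgf13 overlapped, at 1.24 ± 0.167 and 1.19 ± 0.0214 RPKM, and no other neighbors did. The level of Fgf3 was calculated by the authors with a transcript of 1194 bases, whereas GENCODE gives its transcript 2299 bases. Lengths also differed for Fgf9 (4139 bases, and 1593 in GENCODE), NM_008005 of Fgf18 (1538 and 1086) and NM_001277268 of Fgf5 (2400 and 600). Levels and places in the order, above all that of Fgf3, thus depend on the transcript models used.

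**Figure D1:**
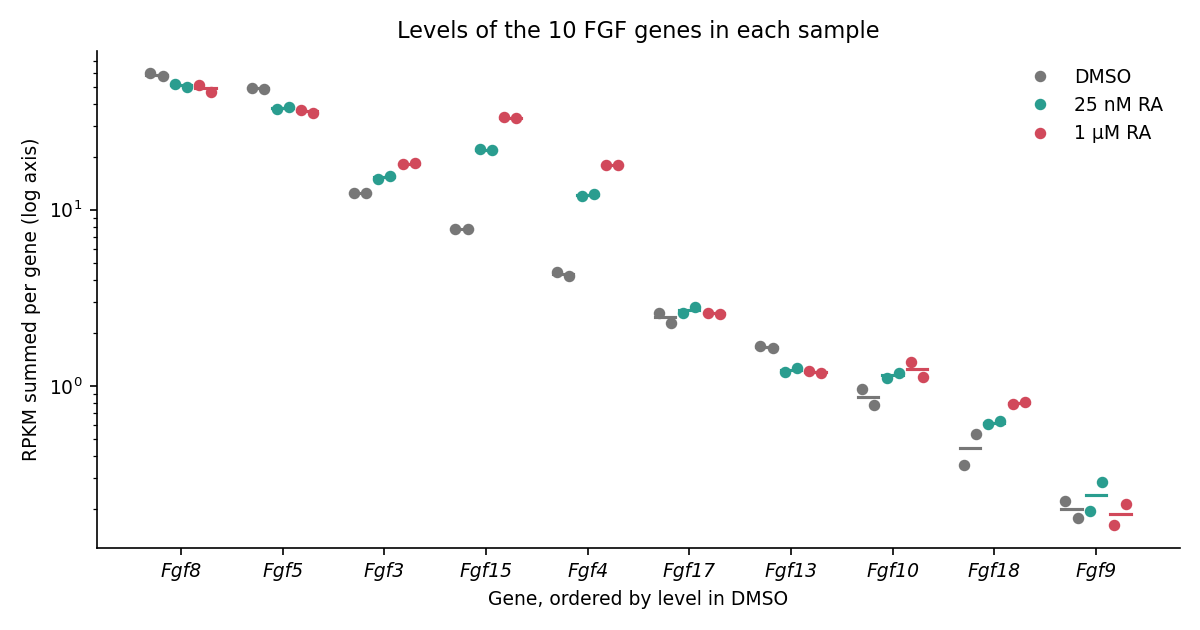
RPKM of each of the 10 genes (log axis) in the 6 samples, with 1 point per sample and a line at the mean of each condition. Fgf15 and Fgf4 rise with each dose while Fgf8 and Fgf5 lie lower in both RA conditions than in DMSO, and the points of Fgf9 and Fgf17 overlap between conditions.

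To learn which FGF genes respond to RA at a physiological dose, counts summed per gene were compared between 25 nM RA and DMSO with the edgeR likelihood ratio test, and a gene was called at an adjusted p under 0.1. All 10 genes passed the filter on low counts. Fgf15, Fgf4, Fgf3 and Fgf10 were higher with RA and Fgf5, Fgf8 and Fgf13 lower, while Fgf17, Fgf18 and Fgf9 were not called. Thus 4 of 10 were called higher, where 4.5% of the 15143 genes tested were, and 3 of 10 lower, where 3.55% were. The paper already reports Fgf8 and Fgf15 as changed by RA in these same samples. The 10 genes were listed with such earlier results known, so the shares here and below describe the list and do not test it. The median log2 fold change of the 10 genes was 0.29 against -0.00051 for all genes tested. At 1 µM RA, a dose above that found in embryonic tissue, 5 of 10 were called higher (8.54% of all genes) and 3 of 10 lower (11.2% of all genes), and the median was 0.28 against 0.0013. Fgf18 was the gene called at 1 µM and not at 25 nM RA. Both comparisons use the same DMSO samples, so the values at the 2 doses are given side by side and are not independent of each other.

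**Figure D2:**
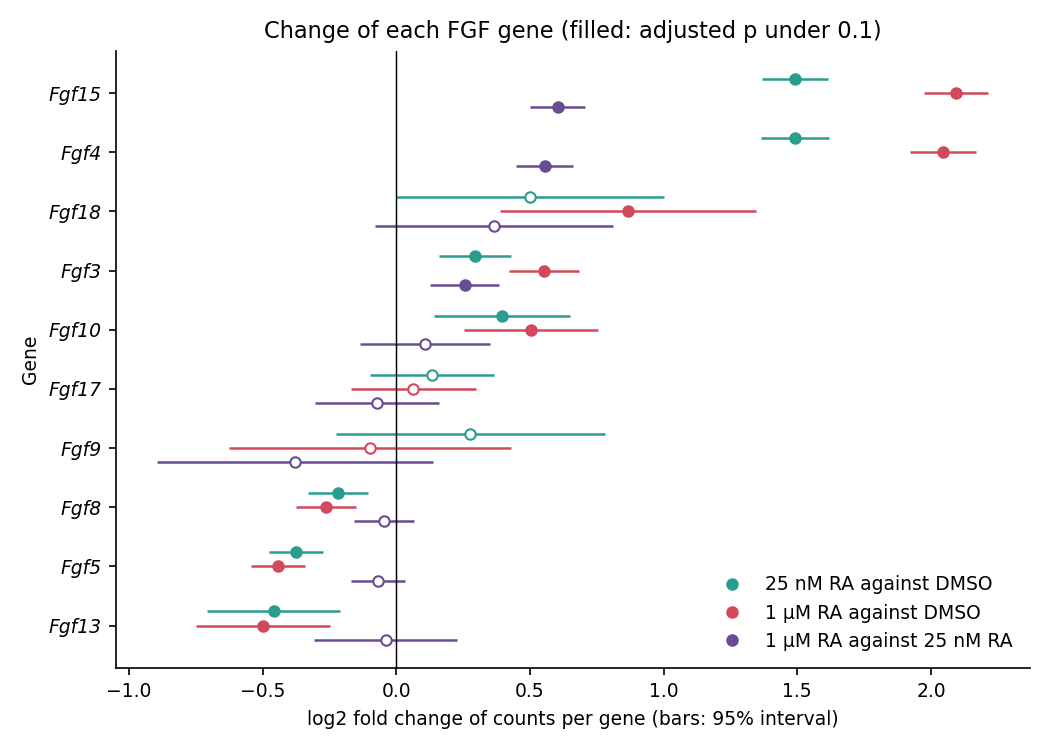
Log2 fold change of the counts per gene for the 10 genes in the 3 comparisons, with 95% intervals from the edgeR fit and filled points for adjusted p under 0.1. Fgf15 and Fgf4 stand near 1.49 at 25 nM and above 2 at 1 µM RA, and for Fgf8, Fgf5 and Fgf13 the interval of the direct comparison of doses includes 0.

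Fgf15 had the smallest p-value of the 10 genes at both doses, and its fold change was the largest at 1 µM RA and next to that of Fgf4 at 25 nM. Its level was 7.76 and 7.78 RPKM in the DMSO samples, 22.1 and 21.7 at the low dose, and 33.4 and 33.3 at the high dose. The samples of each condition differed by far less than the conditions did, and no ranges overlapped. Against DMSO Fgf15 was 2.81-fold higher at 25 nM (log2 fold change 1.49, SE 0.0628, edgeR adjusted p = 1.1e-125) and 4.27-fold higher at 1 µM (2.09, SE 0.0611, edgeR adjusted p = 1.04e-268). By p-value it ranked 13 of 15143 genes at the lower dose and 8 at the higher.

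Fgf4, which is made by the epiblast and primitive streak, behaved much like Fgf15 at a lower level. It measured 4.42 and 4.21 RPKM in DMSO, 12.0 and 12.3 at the low dose, and 17.8 and 18.0 at the high dose, from 539 to 690 counts in the DMSO samples and from 2344 to 2403 at 1 µM RA. Fgf4 was thus 2.81-fold higher at 25 nM (log2 fold change 1.49, SE 0.0647, edgeR adjusted p = 1.57e-118) and 4.13-fold higher at 1 µM RA (2.05, SE 0.0631, edgeR adjusted p = 8.29e-241). When genes with a mean of 1 RPKM or more were ranked by how little their log2 CPM, a count scaled to library size, less the DMSO mean, differed from those of Fgf15 over the 6 samples, Fgf4 was the nearest of 11094 genes, with a root mean square difference of 0.0403. Lefty1, an inhibitor of Nodal signaling, was next at 0.130, before Il10rb (0.133), the motor neuron transcription factor gene Mnx1 (0.159) and the DNA demethylation gene Tet2 (0.181). Fgf3 was at rank 199. The ranking describes these 6 samples and was made without a test.

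Fgf3, a ligand of the primitive streak and tail bud, also was higher with RA, by a smaller factor. Its level was 12.4 RPKM in both DMSO samples, 15.0 and 15.5 at the low dose, and 18.2 and 18.3 at the high dose, with no overlap of ranges. The log2 fold change of Fgf3 was 0.30 at the low dose (SE 0.0684, 1.23-fold, edgeR adjusted p = 0.00052) and 0.55 at 1 µM RA (SE 0.0667, 1.47-fold, edgeR adjusted p = 8.4e-15).

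Fgf10, known for mesenchymal signaling in limb and lung, was near 1 RPKM. It measured 0.956 and 0.776 RPKM in DMSO, 1.11 and 1.18 at the low dose, and 1.36 and 1.12 at the high dose, from 150 to 270 counts per sample. Both RA conditions lay above DMSO, and the 2 RA conditions overlapped. Fgf10 was called at 25 nM (log2 fold change 0.40, SE 0.129, edgeR adjusted p = 0.036) and at 1 µM RA (0.50, SE 0.128, edgeR adjusted p = 0.0010). The call at 25 nM was lost with DESeq2 (adjusted p = 0.43), without the second DMSO sample (0.50) or without the second 25 nM sample (0.39), and the call at 1 µM was lost without the first 1 µM sample (edgeR adjusted p = 0.12). An antisense gene, Gm16263, overlaps Fgf10, and whether the counting used strand is not given in the sources used here, so its reads may be included.

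Of the Fgf8 subfamily, Fgf18 was the lone gene with a rise. It had 28 and 35 counts in the DMSO samples, 36 and 47 at the low dose and 53 and 55 at the high dose, or 0.353, 0.535, 0.605, 0.628, 0.790 and 0.812 RPKM in that order. The ranges did not overlap, but the counts were few. Its log2 fold change was 0.50 at the low dose (SE 0.255, edgeR adjusted p = 0.33) and 0.87 at 1 µM RA (SE 0.244, 1.82-fold, edgeR adjusted p = 0.0034). The latter call was lost with DESeq2 (adjusted p = 0.18) and without the first DMSO sample, when the log2 fold change was 0.56 and the edgeR adjusted p 0.23.

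Fgf8 itself, which RA is known to repress in caudal progenitors, was lower with RA by less than the responses of Fgf15 and Fgf4. Its level was 59.4 and 57.3 RPKM in DMSO, 51.6 and 49.9 at the low dose, and 51.2 and 46.7 at the high dose. Every RA sample lay below both DMSO samples, and the 2 RA conditions overlapped. Fgf8 fell by 14.0% at 25 nM RA (log2 fold change -0.22, SE 0.0571, edgeR adjusted p = 0.0037) and fell by 16.7% at 1 µM RA (-0.26, SE 0.0571, edgeR adjusted p = 7.7e-05). Without the second 25 nM sample the change at that dose was -0.20 and no longer called (edgeR adjusted p = 0.14). The summed levels of the presomitic mesoderm and endoderm markers given above, though not each marker (Tcf15 and Meox1 were higher), were lower in the same samples, and their part in the values of Fgf8, Fgf5 and Fgf13 was not tested.

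Fgf5 fell by more than Fgf8. It measured 49.3 and 48.2 RPKM in DMSO, 37.3 and 38.3 at the low dose, and 37.0 and 35.4 at the high dose. All RA samples were again below both DMSO samples. It fell by 22.8% at 25 nM RA (log2 fold change -0.37, SE 0.0511, edgeR adjusted p = 2.4e-11) and fell by 26.4% at 1 µM RA (-0.44, SE 0.0512, edgeR adjusted p = 4.1e-16).

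Fgf13, the gene of the intracellular factor, was lower with RA as well. Its level was 1.67 and 1.64 RPKM in DMSO, 1.19 and 1.26 at the low dose, and 1.21 and 1.18 at the high dose, and the RA conditions overlapped each other but not DMSO. Its log2 fold change was -0.46 at the low dose (SE 0.127, edgeR adjusted p = 0.0065) and -0.50 at 1 µM RA (SE 0.127, edgeR adjusted p = 0.0011). DESeq2 called neither (adjusted p = 0.34 and 0.11), and without the first 25 nM sample the edgeR adjusted p at that dose was 0.14.

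Fgf17 and Fgf9 were called in no comparison. Fgf17, a close relative of Fgf8 in the caudal progenitor zone, measured 2.60 and 2.28 RPKM in DMSO, 2.57 and 2.81 at the low dose, and 2.59 and 2.56 at the high dose. Its log2 fold changes were 0.13 (95% interval -0.097 to 0.37) at 25 nM and 0.064 (-0.17 to 0.30) at 1 µM RA. The level of Fgf9 was between 0.161 and 0.285 RPKM in the 6 samples, from 29 to 57 counts, and the conditions overlapped. At this depth its log2 fold change of 0.28 at 25 nM RA had an interval from -0.22 to 0.78, and that of -0.099 at 1 µM RA from -0.63 to 0.43.

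The 2 doses were compared directly in the same fit, to ask which genes responded further above 25 nM RA. Fgf15, Fgf4 and Fgf3 were called higher at 1 µM than at 25 nM RA, which is 3 of 10 where 0.792% of all genes were called. For Fgf15 the log2 fold change was 0.60 (SE 0.0525, 1.52-fold, edgeR adjusted p = 8.7e-27), for Fgf4 0.56 (SE 0.0541, 1.47-fold, edgeR adjusted p = 3.7e-21) and for Fgf3 0.26 (SE 0.0653, 1.19-fold, edgeR adjusted p = 0.0079). Fgf15 and Fgf4 ranked 2 and 4 by p-value among the 15143 genes. The call of Fgf3 was lost with DESeq2 (adjusted p = 0.20) and without the first 25 nM sample (edgeR adjusted p = 0.26). With edgeR 0 of 10 genes were called lower at 1 µM (2.62% of all genes), and the number was also 0 at an unadjusted p under 0.05, with the quasi-likelihood test and with DESeq2. The genes that RA lowered gave small differences between doses, of -0.046 for Fgf8 (95% interval -0.16 to 0.068), -0.069 for Fgf5 (-0.17 to 0.033) and -0.040 for Fgf13 (-0.31 to 0.23) on the log2 scale.

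The sum of FGF RNA and its composition were described by condition and not tested. Fgf8 and Fgf5 were called lower above and Fgf3, Fgf4 and Fgf15 higher, so their shares restate those calls. The RPKM of the 9 genes of secreted FGFs added up to 137 and 134 without RA, 142 and 143 at the low dose, and 163 and 156 at the high dose. Fgf8 and Fgf5 together made up 79.0% of that sum in DMSO, 62.1% at the low dose and 53.4% at the high dose. Fgf3, Fgf4 and Fgf15 made up 18.1%, 34.6% and 43.6%, and their summed level was 24.5 ± 0.134, 49.3 ± 0.330 and 69.5 ± 0.147 RPKM. The samples of a condition differed by at most 1.81 percentage points in either share. Fgf17, Fgf18, Fgf10 and Fgf9 together made up between 2.82% and 3.44% in every sample. These shares describe RNA per transcript length and not protein, and like the order of levels they depend on the transcript models used, that of Fgf3 among them.

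**Figure D3:**
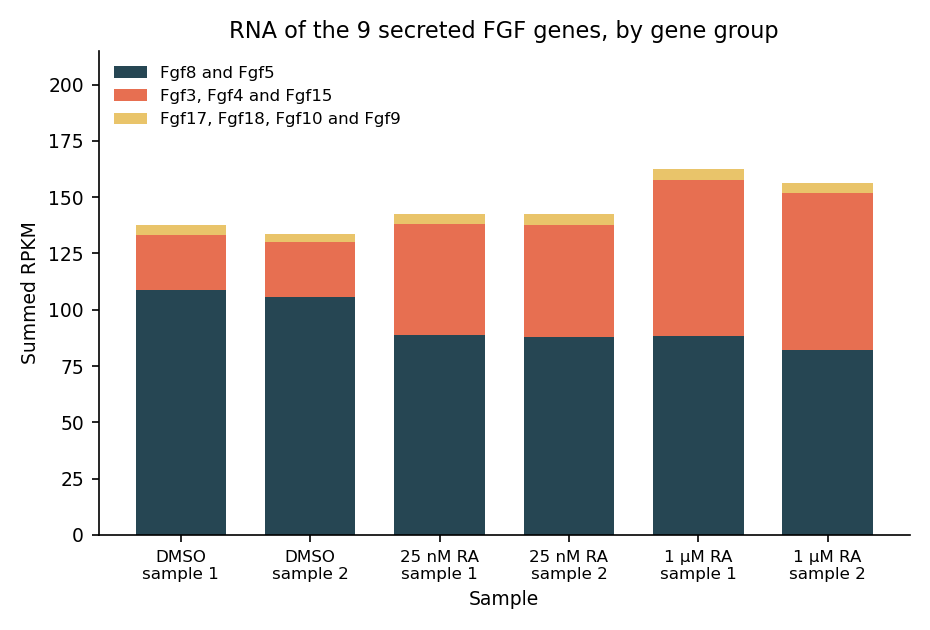
Summed RPKM of the 9 genes of secreted FGFs in each of the 6 samples, stacked by gene group from 0. The block of Fgf3, Fgf4 and Fgf15 goes from 24.5 RPKM on average in DMSO to 69.5 at 1 µM RA while that of Fgf8 and Fgf5 goes from 107.1 to 85.2.

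Fgf3, Fgf4 and Fgf15 are neighbors on chromosome 7, all on the plus strand. Fgf3 spans 144838612 to 144843348, Fgf4 144861386 to 144865243 and Fgf15 144896532 to 144900951 in mm10, so the 3 genes take up 62.3 kb, with gaps of 18.0 kb and 31.3 kb between them. GENCODE ends Fgf3 at 144844436 and starts Fgf4 at 144847367, which leaves a smaller gap between Fgf3 and Fgf4. GENCODE places no other coding gene between them, and one antisense gene, Gm26793, which overlaps the start of Fgf15. A second antisense gene, Gm39119, overlaps the end of Fgf15, and reads of either may be included in its counts for the reason given for Fgf10. The files list 11 other genes within 500 kb of the 3 genes, of which 8 were tested, and 2 were called at the low and 3 at the high dose, each of them higher, where 4.5% and 8.54% of all genes were called higher. The gene after Fgf15, Oraov1, lies 14.2 kb away and measured 3.60 ± 0.0862, 3.64 ± 0.105 and 3.94 ± 0.0190 RPKM, with log2 fold changes of 0.010 (SE 0.0922, edgeR adjusted p = 0.98) and 0.12 (SE 0.0906, edgeR adjusted p = 0.42). Ccnd1, the cyclin D1 gene 29.0 kb away, was at 65.6 ± 1.80 RPKM in DMSO and 72.9 ± 0.11 at 1 µM RA, where its log2 fold change of 0.14 was called (SE 0.0474, edgeR adjusted p = 0.021).

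On the other side, the nearest gene is Ano1, a chloride channel gene 100 kb before Fgf3. It was called at 25 nM RA (log2 fold change 1.35, SE 0.414, edgeR adjusted p = 0.012) at levels of 0.0422 RPKM in DMSO and 0.109 with RA, and at 1 µM RA its change was 0.92 (SE 0.434, edgeR adjusted p = 0.13). Ppfia1 was called at both doses, with log2 fold changes of 0.20 (edgeR adjusted p = 0.0021) and 0.21 (edgeR adjusted p = 0.00054), and the death adaptor gene Fadd at 1 µM RA with 0.25 (edgeR adjusted p = 0.067). Ano1 had the largest change of the tested neighbors at both doses. At 25 nM RA its 1.35 compares with 1.49 for Fgf4 and Fgf15 and 0.30 for Fgf3. At 1 µM RA its 0.92 compares with 2.05 and 2.09 for Fgf4 and Fgf15 and 0.55 for Fgf3. The antisense gene Gm26793 was not among the neighbors tested. The paper lists it among the non-coding RNAs activated at 25 nM RA and links it to Fgf15. How far its reads add to the rise of Fgf15 was not tested.

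**Figure D4:**
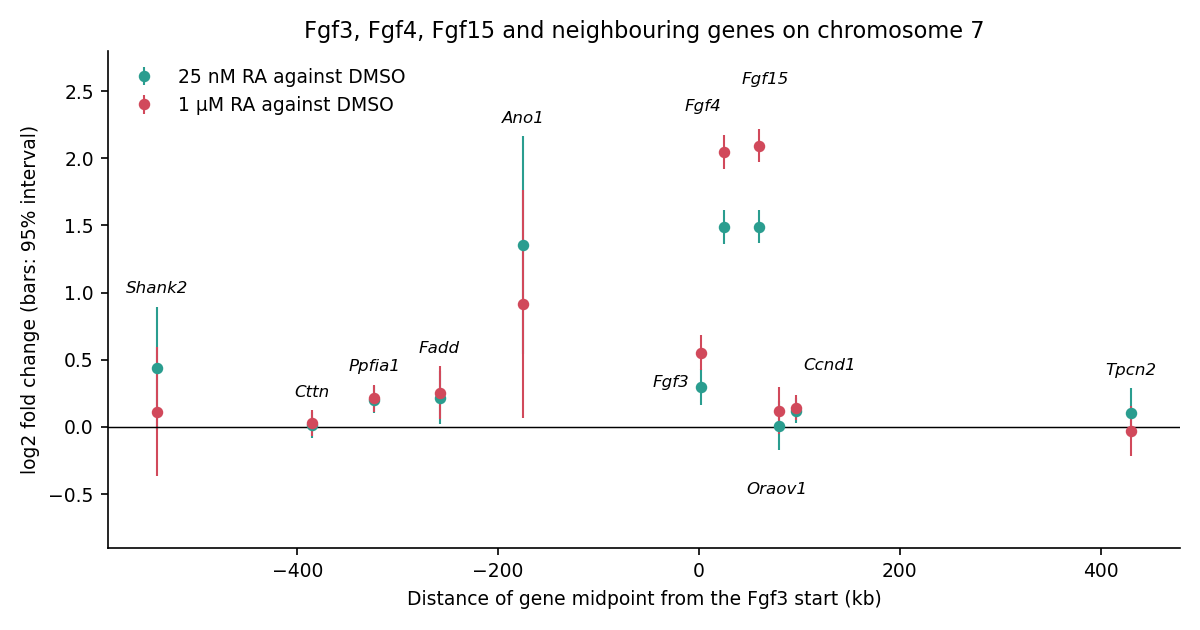
Log2 fold change at 25 nM and 1 µM RA against DMSO for the genes tested within 500 kb of Fgf3, Fgf4 and Fgf15, by distance of the gene midpoint from the Fgf3 start, with 95% intervals. Fgf4 and Fgf15 lie at 1.49 and above 2, Oraov1 and Ccnd1 beside them lie at or below 0.14, and the wide interval of Ano1 belongs to a gene under 0.2 RPKM.

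To show the sequence before the starts of neighboring genes that were both called higher, promoters were read from RefSeq sequences (GRCm38.p6), which hold 250 bases before and 50 after a gene's start. Promoters of 7 of the 10 genes were matched (not Fgf8, Fgf15 and Fgf17), as 10 windows. RA receptors bind pairs of half-sites such as AGGTCA and AGTTCA. Neither of these forms was found on either strand in any of the 10 windows, whereas 27.7% of all 32851 promoters hold at least 1 of them. Other forms of the half-site were not searched for, so the windows may hold those. Direct repeats of these half-sites with spacers of 1, 2 or 5 bases are in 0.0822%, 0.0396% and 0.0396% of all promoters. The authors report such a repeat near Fgf15 and cite an RA response element near Fgf8, and neither gene has a window here. Searches on both strands for the GC box GGGCGG, the box CCAAT and TATAAA, which are in 35.7%, 37.4% and 13.6% of all promoters, gave 2 GC boxes, 214 and 188 bases before the start, and 1 CCAAT box on the other strand in the promoter of Fgf4 and none in that of Fgf3. A match is a description of letters, and the lack of one says only that they are not in this window. GENCODE starts Fgf3 at 144838083 and Fgf4 at 144847367, so both windows lie inside these genes as GENCODE annotates them. The bases before the RefSeq start of both genes are shown on the plus strand, with these boxes in capitals, at chr7:144861136-144861385 for Fgf4 and chr7:144838362-144838611 for Fgf3.
Fgf4 promoter: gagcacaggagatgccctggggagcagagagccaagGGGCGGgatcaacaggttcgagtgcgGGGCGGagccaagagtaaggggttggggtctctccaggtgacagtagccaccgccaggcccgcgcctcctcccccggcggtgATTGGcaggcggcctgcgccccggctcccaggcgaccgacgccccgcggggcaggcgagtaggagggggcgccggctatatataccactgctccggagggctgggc
Fgf3 promoter: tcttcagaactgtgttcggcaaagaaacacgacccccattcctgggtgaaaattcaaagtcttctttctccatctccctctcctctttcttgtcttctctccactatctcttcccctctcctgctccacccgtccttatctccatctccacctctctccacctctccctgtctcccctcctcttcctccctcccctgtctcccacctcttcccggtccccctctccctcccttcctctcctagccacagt

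The estimates per transcript were tested separately for the isoforms shown above. Of the 17 transcripts 14 passed the filter on low counts, and 5 were called at 25 nM RA (3.69% of the 22074 transcripts tested), 5 at 1 µM RA (8.3%) and 2 between the doses (1.8%). Fgf15 and Fgf4, with 1 transcript each, gave the same fold changes as above. For NM_010203 of Fgf5, which has the exon of 104 bases, the level was 42.3 and 37.0 RPKM in DMSO, 27.5 and 31.5 at the low dose, and 26.0 and 26.2 at the high dose. It was lower by -0.43 on the log2 scale at 25 nM (SE 0.0963, edgeR adjusted p = 0.00072, quasi-likelihood 0.15) and by -0.61 at 1 µM RA (SE 0.0965, edgeR adjusted p = 2.8e-08). NM_001277268, without that exon, measured 7.07 and 11.2, 9.78 and 6.77, and 11.1 and 9.24 RPKM in the same order, and its conditions overlapped. Its log2 fold changes were -0.15 (95% interval -0.69 to 0.38) and 0.14 (-0.39 to 0.68). Its share of the Fgf5 counts was 13.8% and 22.5% in DMSO, 25.4% and 17.1% at the low dose, which overlaps DMSO, and 29.0% and 25.3% at the high dose.

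Of the Fgf8 transcripts, NM_001166361 with the exon of 87 bases was called at 25 nM RA and NM_001166362, which shares its stretch of 33 bases, at 1 µM RA. NM_001166361 measured 6.25 and 7.83 RPKM in DMSO, 4.73 and 4.12 at the low dose, and 6.62 and 6.46 at the high dose, so the samples at 1 µM lay within the DMSO range. Its log2 fold change was -0.67 at 25 nM (SE 0.192, edgeR adjusted p = 0.021, quasi-likelihood 0.19, DESeq2 0.16) and -0.11 at 1 µM RA (SE 0.188, edgeR adjusted p = 0.88), and without the second DMSO sample the first was -0.50 (edgeR adjusted p = 0.46). The difference between the doses was 0.56 (SE 0.193, edgeR adjusted p = 0.16). NM_001166362 measured 20.4 and 16.5 RPKM in DMSO, 17.5 and 16.4 at the low dose, and 13.7 and 13.1 at the high dose, a log2 fold change of -0.13 (SE 0.134) and -0.48 (SE 0.135, edgeR adjusted p = 0.011, quasi-likelihood 0.12). Without the first DMSO sample the latter was -0.32 (edgeR adjusted p = 0.25).

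NM_010205 and NM_001166363 of Fgf8 were not called. NM_010205, with the stretch of 192 bases, had log2 fold changes of -0.31 (95% interval -0.61 to -0.0079, edgeR adjusted p = 0.49) and -0.32 (-0.63 to -0.023, edgeR adjusted p = 0.25), and without the first DMSO sample both passed the threshold. NM_001166363 had 0.015 (-0.38 to 0.41) and -0.00082 (-0.40 to 0.40). The share of NM_010205 in the Fgf8 counts was 31.2% and 41.3% in the DMSO samples, a wider gap than that between its mean shares in the 3 conditions, which were 36.3%, 33.9% and 34.7%. The 4 transcripts share most of their bases and are not independent, and whether their responses differ from each other was not tested.

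**Figure D5:**
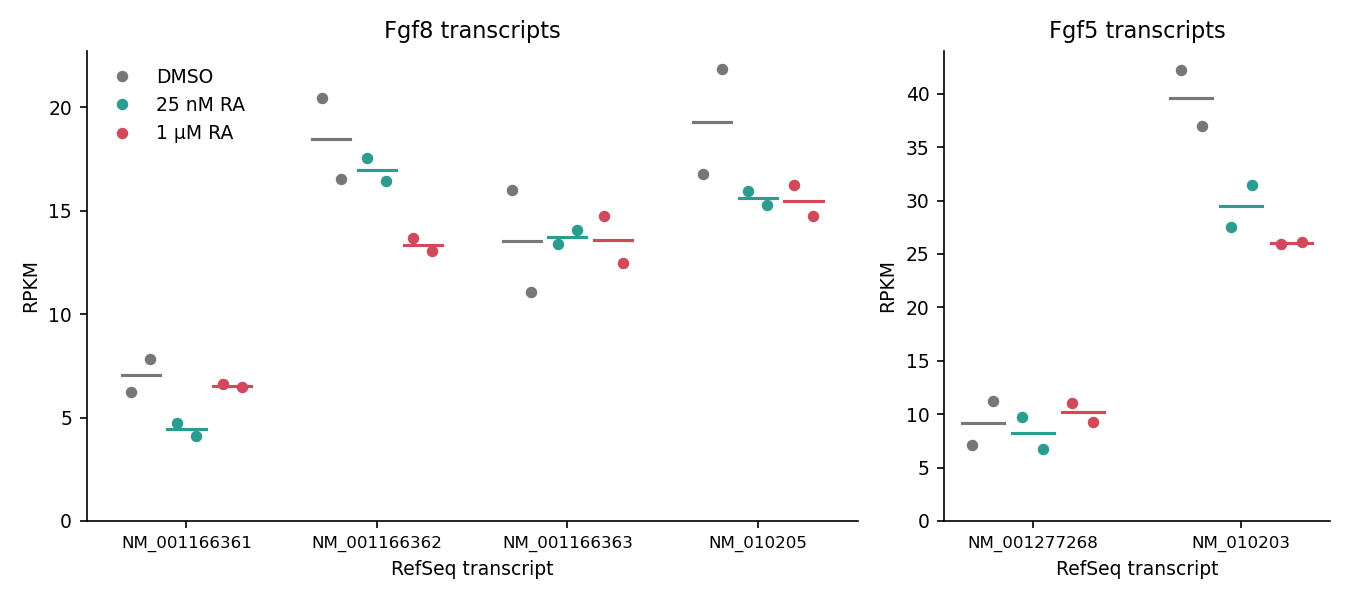
RPKM of the 4 RefSeq transcripts of Fgf8 and the 2 of Fgf5 in each sample (linear axis from 0), with a line at the mean of each condition. NM_010203 of Fgf5 lies lower in all RA samples than in DMSO, and the DMSO samples of NM_001166363 and NM_010205 are farther apart than the RA samples.

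The remaining transcripts were scarce. NR_102395, a non-coding transcript of Fgf18, was estimated at 0.0914 to 9.87 counts per sample and was not tested, and in 4 of 6 samples the estimation gave the coding NM_008005 the same share of the Fgf18 counts, 81.4%. Of the Fgf13 transcripts, NM_010200 held 97.7% of counts in DMSO, 89.1% at the low dose and 90.9% at the high dose on average. NM_001290415 of Fgf13 was estimated at 0.792 and 0.372 counts in DMSO, 15.2 and 3.30 at the low dose, and 8.33 and 5.66 at the high dose, too few to be tested, and NM_001290414 at no more than 8.89 counts in any sample. Fgf10, Fgf3, Fgf13 and Fgf18 lost calls on this level. The spread estimated over all transcripts was larger than over all genes, with a biological coefficient of variation of 0.131 against 0.0351. Fgf10 and Fgf3 have 1 transcript each, so their own counts were the same on both levels. Fgf10 was not called at either dose (edgeR adjusted p = 0.60 and 0.17), and Fgf3 was called at 25 nM (edgeR adjusted p = 0.066, quasi-likelihood 0.18) and at 1 µM RA but not between the doses (edgeR adjusted p = 0.20). NM_010200 of Fgf13 had log2 fold changes of -0.59 and -0.60 (edgeR adjusted p = 0.198 and 0.101), and NM_008005 of Fgf18 had 0.85 at the high dose (edgeR adjusted p = 0.21), and none of these was called.

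The other genes of the FGF pathway were described by lists of 65 genes, of which 58 were tested. At 25 nM RA 7 were called higher and 4 lower, at 1 µM RA 10 higher and 13 lower, and between the doses 1 higher and 2 lower, with medians of -0.011, -0.030 and -0.021 on the log2 scale against -0.00051, 0.0013 and 0.00029 for all genes tested. Of all genes, 4.5% were called higher and 3.55% lower at 25 nM, 8.54% and 11.2% at 1 µM, and 0.792% and 2.62% between the doses. Among 7 receptor and co-receptor genes Fgfr2 was called higher at both doses, from 1.16 ± 0.0166 RPKM in DMSO to 1.94 ± 0.104 and 2.06 ± 0.0820 (log2 fold changes 0.72 and 0.80, edgeR adjusted p = 2.8e-13 and 6.6e-17). Fgfr1, the most abundant receptor gene here, was at 17.2 ± 0.450, 17.2 ± 0.0908 and 15.6 ± 0.456 RPKM and was called lower at 1 µM RA (-0.15, edgeR adjusted p = 0.019). Klb, encoding the co-receptor of FGF15, was below 0.2 RPKM in all conditions and was not called. Of 12 further FGF genes 5 were tested, and Fgf23 was called at 1 µM RA, at 0.238 ± 0.0219 RPKM in DMSO and 0.550 ± 0.0549 with RA (1.21, edgeR adjusted p = 2.8e-06).

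Of 13 feedback inhibitors and ETS targets of FGF signaling, 4 were called higher and 2 lower at 25 nM (4.5% and 3.55% of all genes), and 5 higher and 5 lower at 1 µM RA (8.54% and 11.2% of all genes). Flrt3, which encodes a membrane protein that binds FGF receptors, gave the largest change of the list, from 5.31 ± 0.208 RPKM in DMSO to 9.17 ± 0.0210 and 10.7 ± 0.254 with RA (log2 fold changes 0.79 and 1.01, edgeR adjusted p = 2.4e-38 and 9.6e-66), and was also higher at 1 µM than at 25 nM RA (0.22, edgeR adjusted p = 0.0048). Spred1, Spred2 and Il17rd, all inhibitors of the pathway, were higher at both doses by 0.22 to 0.46 on the log2 scale. The inhibitor Spry1 fell by 0.31 and 0.39 and the ERK phosphatase gene Dusp4 by 0.21 and 0.38. At 1 µM RA Dusp6, another ERK phosphatase gene, was higher by 0.23 (edgeR adjusted p = 3.1e-05), and Spry2, Spred3 and Etv1 were lower. Spry2 and Dusp4 were lower at 1 µM than at 25 nM RA by -0.17 and -0.16 (edgeR adjusted p = 0.088 and 0.052). The genes Etv4 and Etv5, transcription factor targets of FGF8, were not called and differed from DMSO by at most 0.046.

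Of 18 genes of receptor adaptors and Ras-ERK kinases, Frs2, the adaptor of FGF receptors, was lower at both doses (-0.26 and -0.43, edgeR adjusted p = 0.0054 and 6.6e-08), and Sos1 and Gab1 were lower at 1 µM RA (-0.26 and -0.16). Of 15 genes for heparan sulfate and ligand-binding proteins, Ndst1 (0.37 and 0.36) and Hs6st1 (0.21 and 0.16), enzymes that sulfate heparan, were higher at both doses and the glypican gene Gpc4 was lower (-0.35 and -0.53). Hs2st1 was called higher at 1 µM RA, and Fgfbp1, Sulf2 and Gpc1 lower, by at most 0.30.

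Fgf8 was compared with all genes in the same way as Fgf15. Its nearest genes by profile over the 6 samples were Wipf2 (root mean square difference 0.0125), Plekhf2 (0.0199), Jph1 (0.0227), Ahnak (0.0234) and Frrs1 (0.0306). Each of them was lower than in DMSO by 0.20 to 0.29 on the log2 scale at both doses, which follows from how they were chosen. By log2 fold change Fgf8 was at rank 1501 from the lowest of 15143 genes at 25 nM RA and 1928 at 1 µM, and Fgf5 at 645 and 877, whereas Fgf15 was at rank 74 and 46 from the highest and Fgf4 at 73 and 49.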

How the data were processed

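From the 6 samples, total RNA depleted of ribosomal RNA was sequenced as single-end reads. The authors aligned these with TopHat2 2.0.13 and Bowtie2 2.2.5.0 to mm10, and estimated RefSeq transcripts by expectation-maximization in Partek 6.6. The deposited estimated counts are not normalized, and the authors scaled the deposited RPKM values by transcript length and reads. Counts were summed per gene, rounded, and fitted in edgeR 4.0.16 (R 4.3.3) with TMM factors (0.989 to 1.01 per gene), filterByExpr, 1 coefficient per condition over all 6 samples, and the likelihood ratio test that the methods name. P-values were adjusted by Benjamini-Hochberg over the 15143 genes or 22074 transcripts tested. Intervals are 1.96 standard errors either way. The fit was tested on simulated data. Also run were DESeq2 1.42.0, its size factors in edgeR, the quasi-likelihood test of edgeR, total counts, other filters, the 4 samples compared, a replicate block, an adjusted p under 0.05, and leaving out each sample. All members and their transcripts are named, pathway genes and chromosome 7 neighbors within 500 kb if called or adjacent, and the 5 nearest profiles of Fgf8 and Fgf15. The members, lists and tests were chosen with earlier results of these data known. Positions are those of the deposited files, whose end column is 1 base past the last base and was corrected. Set against sampling noise, the mean chi-square per gene between duplicates was 3.65 to 5.58 and the median 0.816 to 0.976. Both lie above what sampling noise alone would give for duplicates. The samples were counted separately because they came from separate dishes.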

Additional observations from a re-analysis of the deposited data

How the results depend on the processing

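Of the 390 values per gene under an alternative, 370 kept their direction and their side of the threshold, and 12 calls were lost, all of them given above with Fgf8, Fgf18, Fgf3, Fgf10 and Fgf13. The calls of Fgf15, Fgf4 and Fgf5 against DMSO held in every alternative run, as did those of Fgf15 and Fgf4 between the doses. Of 546 values per transcript 501 were kept, 18 calls were lost and 3 gained. The number of transcripts called at the low dose was 5, and 2 with the quasi-likelihood test, 3 with DESeq2 and 3 to 5 with 1 sample left out. Between the doses 2 were called, and 1 with the quasi-likelihood test. Other counts of called genes or transcripts stayed within 1.5 times the reported ones. Over all genes the quasi-likelihood test called 336 between the doses against 516, and DESeq2 567, 1594 and 158 in the 3 comparisons against 1219, 2983 and 516. Same-numbered samples did not deviate together (correlations -0.044, 0.0487 and -0.0593), so the numbers were not taken as pairs. A replicate block changed the call of Fgf3 NM_008007 at the low dose alone (edgeR adjusted p = 0.16), and left every other call among the 10 genes and 14 transcripts as it was. The cause of these changes was not tested.

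All values that changed sign belong to comparisons that were not called. NM_001166363 of Fgf8 at the high dose went from -0.00082 to 0.0014 with DESeq2, 0.0013 with its size factors, 0.0093 with a replicate block and 0.0012 with the 4 samples compared. Leaving out 1 sample at a time, log2 fold changes that changed sign in the high against the low dose ranged from -0.12 to 0.027 for Fgf8, from -0.13 to 0.0090 for Fgf17, from -0.047 to 0.25 for Fgf10, from -0.098 to 0.034 for Fgf13, from -0.15 to 0.11 for Fgf8 NM_001166363, from -0.094 to 0.059 for Fgf8 NM_010205, from -0.13 to 0.010 for Fgf17 NM_008004, from -0.041 to 0.25 for Fgf10 NM_008002 and from -0.11 to 0.11 for Fgf13 NM_010200. Leaving out 1 sample at a time, log2 fold changes that changed sign in the high dose against DMSO ranged from -0.012 to 0.16 for Fgf17, from -0.31 to 0.080 for Fgf9, from -0.27 to 0.063 for Fgf8 NM_001166361, from -0.24 to 0.28 for Fgf8 NM_001166363, from -0.014 to 0.16 for Fgf17 NM_008004, from -0.16 to 0.52 for Fgf5 NM_001277268 and from -0.30 to 0.091 for Fgf9 NM_013518. Leaving out 1 sample at a time, log2 fold changes that changed sign in the low dose against DMSO ranged from -0.053 to 0.51 for Fgf9, from -0.27 to 0.026 for Fgf8 NM_001166362, from -0.22 to 0.30 for Fgf8 NM_001166363, from -0.45 to 0.23 for Fgf5 NM_001277268 and from -0.044 to 0.52 for Fgf9 NM_013518. Depth limits the genes under 1 RPKM, above all Fgf9 and Fgf18, with 28 to 57 counts per sample.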
